A study of Mus musculus with 35 samples.

Results

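The genes described here encode nuclear subunits and assembly factors of the last part of the mitochondrial respiratory chain: complex III with its electron carrier cytochrome c, complex IV (cytochrome c oxidase) and the ATP synthase. They were chosen by name, as 41 gene symbols, and each gene was read from the array row that carried its symbol alone and, where there were several such rows, from the brightest of them by its mean on the 35 arrays. Of the 41 genes, 40 had such a row, out of 19938 genes with one in all: 10 of complex III and cytochrome c, 16 of complex IV and 14 of the ATP synthase. Cox7c, a complex IV subunit, was left out because its 3 rows were also annotated to Gm12338. RNA of the quadriceps, a thigh muscle, had been hybridised to Affymetrix arrays, 1 array per mouse, from female mice aged 2 months in 2 independent experiments. Mstn-null mice, which carry a null genotype of the myostatin gene, numbered 3 in experiment 1 and 8 in experiment 2. Mice given ActRIIB-Fc, a soluble activin type IIB receptor, had either 1 dose or 4 doses and numbered 3 per dose group in experiment 1 and 5 in experiment 2, as did the control mice. The labels used here give no strain, no amount of ActRIIB-Fc, no sampling time after a dose and no treatment of the control mice.

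In the inner mitochondrial membrane, complex III passes electrons from ubiquinol to cytochrome c, and complex IV passes them from cytochrome c to oxygen. Both pump protons, and the ATP synthase lets the protons flow back through its membrane part (F0) to drive ATP formation in its soluble part (F1). Slow and fast oxidative muscle fibres are rich in these complexes, and fast glycolytic fibres, the bulk of the mouse quadriceps, hold fewer of them. Myostatin is a secreted factor of the TGF-beta family that limits muscle growth, and ActRIIB-Fc binds myostatin together with other ligands of the same receptor.

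The sequences at a start of 5 of these genes are shown. Of these, 4 were taken because they had the largest and the smallest changes in Mstn-null muscle among the members with an NRF1 motif match. NRF1 is a transcription factor known for respiratory genes. The other gene held the 1 match to the motif of the estrogen-related receptors. Windows of 300 bases, from 250 bases before to 50 bases after a start of the gene, were taken from RefSeq (GRCm38.p6). They were found for 31 of the 40 genes, in 34 windows. Each is written 5′ to 3′ on the strand of its gene, with the matched motif in capitals.
Atp5l (chr9:44920693-44920992, minus strand): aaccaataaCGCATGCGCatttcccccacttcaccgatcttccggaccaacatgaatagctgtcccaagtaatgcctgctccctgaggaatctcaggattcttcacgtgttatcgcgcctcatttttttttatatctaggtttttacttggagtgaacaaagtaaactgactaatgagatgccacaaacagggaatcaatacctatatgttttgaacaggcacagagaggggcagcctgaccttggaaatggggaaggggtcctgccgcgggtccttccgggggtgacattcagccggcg
Cycs (chr6:50566520-50566819, minus strand): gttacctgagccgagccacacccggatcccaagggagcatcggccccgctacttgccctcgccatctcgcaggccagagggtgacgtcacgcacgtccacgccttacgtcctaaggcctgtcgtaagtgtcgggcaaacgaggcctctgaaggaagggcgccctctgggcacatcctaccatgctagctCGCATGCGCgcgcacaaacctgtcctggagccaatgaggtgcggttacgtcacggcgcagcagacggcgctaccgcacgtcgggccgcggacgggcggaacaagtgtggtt
Atp5g2 (chr15:102670998-102671297, minus strand): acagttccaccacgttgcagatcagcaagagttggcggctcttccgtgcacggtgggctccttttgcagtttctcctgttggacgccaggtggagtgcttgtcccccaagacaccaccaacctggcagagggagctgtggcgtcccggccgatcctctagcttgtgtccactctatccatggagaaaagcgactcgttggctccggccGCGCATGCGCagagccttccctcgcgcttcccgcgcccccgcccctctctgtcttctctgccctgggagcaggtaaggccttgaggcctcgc
Uqcrc1 (chr9:108936398-108936697, plus strand): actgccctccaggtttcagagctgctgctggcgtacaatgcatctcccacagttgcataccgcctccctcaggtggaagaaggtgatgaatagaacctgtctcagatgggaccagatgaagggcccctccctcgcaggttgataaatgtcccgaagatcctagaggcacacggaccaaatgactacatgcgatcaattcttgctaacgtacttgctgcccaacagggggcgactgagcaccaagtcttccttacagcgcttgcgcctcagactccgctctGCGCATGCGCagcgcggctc
Atp5g3 (chr2:73911277-73911576, minus strand): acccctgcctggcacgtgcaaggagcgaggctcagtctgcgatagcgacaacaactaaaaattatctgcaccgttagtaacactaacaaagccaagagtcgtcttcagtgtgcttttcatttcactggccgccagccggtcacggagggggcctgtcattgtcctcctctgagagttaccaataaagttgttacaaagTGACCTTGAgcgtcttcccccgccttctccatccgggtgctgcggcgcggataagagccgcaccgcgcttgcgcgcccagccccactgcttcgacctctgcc
In the first 4 the capitals mark GCGCATGCG, read on either strand; in Atp5g2 and Uqcrc1 the motif was read once on each strand and the matches overlap. In Atp5g3 they mark TNAAGGTCA, read on the other strand. The Atp5g3 window lies wholly within the listed span of that gene (chr2:73908447-73912464), at a start inside it.

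Searched on both strands, the NRF1 motif GCGCATGCG was in 7 of the 34 windows (20.6%), against 1.75% of all 32851 windows. The ETS motif CCGGAAGT, bound by the factor GABP, was in 6 windows (17.6%), against 3.89% of all windows. The YY1 motif AAGATGGCG was in 3 windows (8.8%, against 1.4%) and the estrogen-related receptor motif TNAAGGTCA in 1 (2.9%, against 1.28%). A match is only a run of letters in this window. The Mstn-null comparison described below called 32 of the 40 genes and 16.4% of all genes lower. Of the 7 genes with the NRF1 motif, 4 were lower in Mstn-null muscle (Atp5l, Cycs, Uqcr11 and Atp5k) and 3 did not pass the test (Uqcrc1, Atp5g2 and Cox6a1). Of the 6 with the ETS motif, Uqcrh, Uqcr11, Cox15 and Atp5h were lower, and Cox8a and Cox10 did not pass.

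Levels below are log2 values of array signal as deposited, and a difference of 1 is 2-fold. Array medians were 4.39 to 4.52 in the first experiment but 6.06 to 6.27 in the second, and no level is set across the 2 experiments. The row of Mstn itself matched the labels. In Mstn-null muscle it read 6.69, 5.78 and 5.95 in experiment 1, against 7.60, 6.77 and 7.68 in control muscle. In experiment 2 the 8 Mstn-null arrays ran from 6.29 to 7.84 with a median of 7.31, against 10.02, 9.92, 10.17, 10.21 and 9.84 in control muscle. The groups did not overlap, and the difference was −2.30 ± 0.23 (log2, SE, adjusted p = 3.54e-08, limma). In treated mice the same row read 7.39 to 8.40 after 1 dose and 6.86 to 8.47 after 4 doses in experiment 1. In experiment 2 it read 10.03 to 10.44 after 1 dose and 10.23 to 10.79 after 4 doses. Markers of skeletal muscle were bright on all arrays: Acta1, the actin of muscle fibres, averaged 14.19 in Mstn-null and 14.09 in control muscle of experiment 2, and 0 of 7 such markers passed the test between them.

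The Mstn-null arrays of experiment 2 were unlike each other in these genes. The median level of the complex IV genes was 9.67, 9.45, 10.37, 10.50, 10.41, 8.87, 9.78 and 9.25 on replicates 1 to 8, against 10.69, 10.70, 10.69, 10.59 and 10.49 on the control arrays. Replicates 3, 4 and 5 lay close to the controls, and the other 5 lay well below them. The same 3 replicates had the highest mean of 10 slow-fibre genes in their group, 9.38, 8.76 and 9.11, against 6.77 to 7.69 on the other Mstn-null arrays and 9.91 to 10.55 on the control arrays. The spread of all gene values on an array, its interquartile range, was also low on 4 of those 5 arrays: replicates 2, 6, 7 and 8 had 2.65, 2.52, 2.60 and 2.59, below the lowest value on any array of another class (2.706), while replicate 1 had 2.712. Over both experiments this range was 0.17 lower in Mstn-null than in control muscle (exact permutation test within experiments, two-sided p = 0.000233, 25740 regroupings). It was 0.03 lower after 1 dose (p = 0.277, exact) and 0.06 lower after 4 doses (p = 0.192, exact). The genes described here are bright, with mean levels at percentiles 75.5 to 99.8 of all genes. Complex IV and slow-fibre levels did not match on all arrays. In experiment 1, Mstn-null replicate 3 had the highest complex IV median of its group (8.55) and the lowest slow-fibre mean (5.70). In experiment 2, replicate 1 after 4 doses and replicate 4 after 1 dose had slow-fibre means of 7.74 and 7.75. Their complex IV medians were 10.57 and 10.52.

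**Figure D1:**
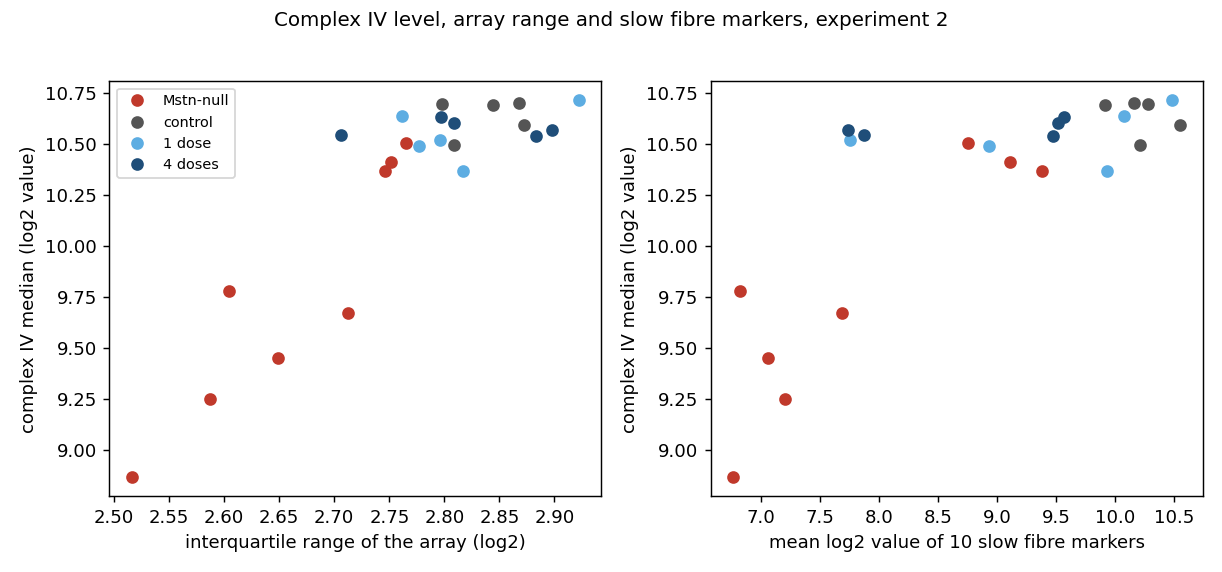
Median log2 value of the 16 complex IV genes on each array of experiment 2, against the interquartile range of the array (left) and the mean log2 value of 10 slow-fibre genes (right). Each point is 1 array. Mstn-null replicates 3, 4 and 5 lie near the other classes at 10.37 to 10.50, and the other 5 Mstn-null arrays lie at 8.87 to 9.78.

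In Mstn-null muscle 32 of the 40 genes were lower than in control muscle and 0 were higher, at an adjusted p under 0.05 (limma, 1 model of class plus experiment on the 35 arrays). Over all genes, 16.4% passed as lower and 25.4% as higher, and among the brightest 10% of genes 43.6% passed as lower. Subtracting the array median from all values moved the median change of all genes to −0.02; then 35 of the 40 were lower and 0 higher, against 22.1% of all genes lower and 7.4% higher. All 40 estimates were negative, with a median of −0.59 on the log2 scale, against 0.09 over all genes and −0.19 over the brightest 10%. By complex, 9 of 10 genes of complex III and cytochrome c were lower (median −0.82), 12 of 16 of complex IV (median −0.58) and 11 of 14 of the ATP synthase (median −0.43). A fall of at least 2-fold was seen for 5 genes, Cox6c, Cox7b, Uqcrfs1, Cox17 and Uqcrh, against 1.16% of all genes. In whole tissue, fewer fibres of a type and less RNA per fibre cannot be told apart. With the interquartile range of the array as a further term, 31 of the 40 estimates were negative, with a median of −0.24. In that fit 1 of the 40 genes remained lower (Uqcrfs1, −0.63 ± 0.16, adjusted p = 0.032, limma), 11 had an unadjusted p under 0.05, and the share over all genes was 0.492%. The range itself was lower in Mstn-null muscle, so in that fit the range and the genotype cannot be told apart. Without the 4 Mstn-null arrays of narrow range, 27 of 40 were lower, against 9.92% of all genes, and the 5 calls lost were Cyc1 (−0.13), Cox5b (−0.10), Cox7a1, Atp5g1 and Atp5o (−0.16).

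**Figure D2:**
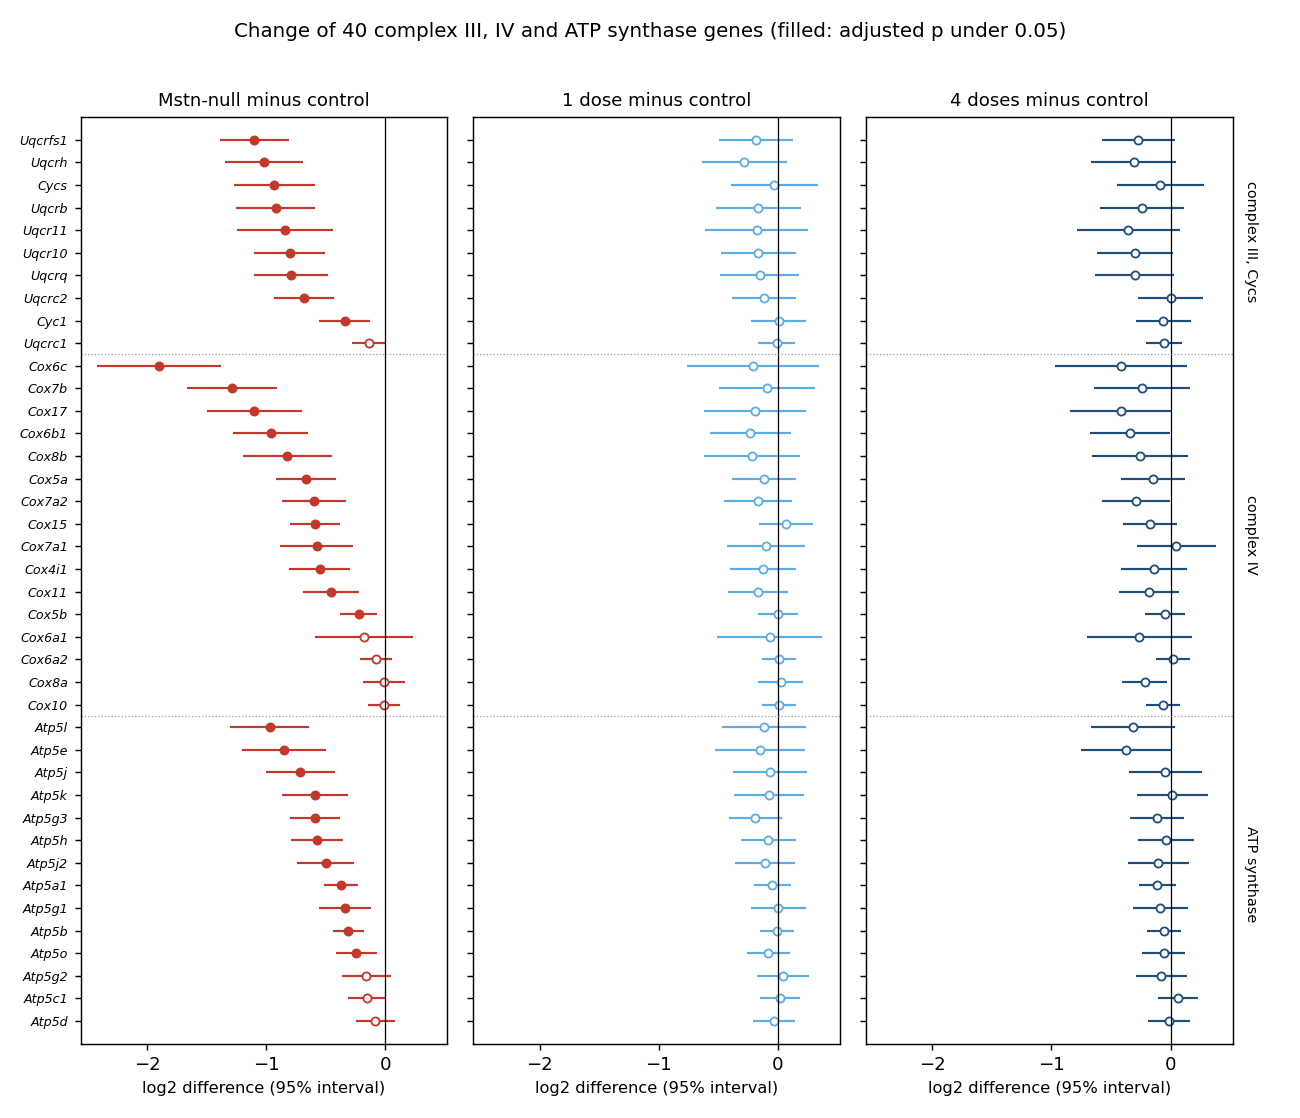
Difference from control muscle in log2 units for the 40 genes, with 95% intervals, in Mstn-null mice and after 1 dose and 4 doses of ActRIIB-Fc (limma fit of both experiments). Filled points have an adjusted p under 0.05: 32 genes in Mstn-null muscle, all lower, and none after either number of doses.

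Complex III carried the largest median shift. Uqcrfs1, the Rieske iron-sulfur protein that hands electrons towards cytochrome c1, read 6.65, 6.85 and 7.18 in Mstn-null muscle of experiment 1, against 7.87, 8.52 and 8.31 in control muscle. In experiment 2 the Mstn-null arrays ran from 8.40 to 9.58 with a median of 8.63, against 9.65, 9.90, 9.90, 9.87 and 9.80 in controls. Every Mstn-null array lay below every control array in both experiments, and the level was 46.7% of control (−1.10 ± 0.14, adjusted p = 1.26e-06). Uqcrh, the acidic hinge protein at the cytochrome c docking side, read 8.18, 8.98 and 9.08 in Mstn-null muscle, against 9.43, 10.28 and 10.18 in control muscle of experiment 1. Its range in experiment 2 was 9.12 to 10.80 (median 10.07) in Mstn-null muscle, against 10.97, 10.97, 10.98, 10.99 and 10.83 in controls. Those groups did not overlap either, and the difference was −1.02 ± 0.16 (adjusted p = 2.45e-05).

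Cycs, the somatic cytochrome c, read 8.89, 9.06 and 9.44 in Mstn-null muscle of experiment 1, against 9.54, 9.47 and 9.60 in controls. In experiment 2 it ran from 10.13 to 11.75 (median 10.78) in Mstn-null muscle, against 11.99, 11.89, 11.91, 11.92 and 12.03 in controls. All Mstn-null arrays were below all controls in both experiments, by −0.93 ± 0.17 overall (adjusted p = 9.75e-05). The small subunits of complex III were also lower: the differences were −0.92 for Uqcrb, −0.84 for Uqcr11, −0.80 for Uqcr10 and −0.79 for Uqcrq, and each passed. The 2 core proteins, which line the matrix side of the complex, differed in size of change, with −0.68 ± 0.12 for Uqcrc2 (adjusted p = 0.000106) and −0.14 ± 0.07 for Uqcrc1 (adjusted p = 0.112). Cyc1, the cytochrome c1 haem protein, fell by 0.34 on the log2 scale (adjusted p = 0.0106).

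Complex IV held both the largest and the smallest changes. Cox6c, a small nuclear subunit, read 7.85, 8.69 and 9.11 in Mstn-null muscle of experiment 1, against 10.39, 10.53 and 10.55 in control muscle. Its values in experiment 2 ran from 9.03 to 12.20 (median 10.49) in Mstn-null muscle, against 12.18, 12.28, 12.33, 12.39 and 12.23 in controls. The groups were apart in experiment 1, while in experiment 2 the brightest Mstn-null array, replicate 5, lay within the control range. The level over both was 26.8% of control (−1.90 ± 0.26, adjusted p = 2.33e-06). Cox7b, another small subunit, averaged 8.40 ± 0.24 in Mstn-null and 9.56 ± 0.33 in control muscle of experiment 1 (SD, n = 3 each). Its experiment 2 values averaged 9.94 ± 0.75 in Mstn-null (SD, n = 8) and 11.26 ± 0.10 in control muscle (SD, n = 5), a difference of −1.29 ± 0.19 over both (adjusted p = 6.47e-06). Cox6b1 (−0.96), Cox5a (−0.66), Cox4i1 (−0.55) and Cox5b (−0.22) also passed as lower; Cox4i1 is a subunit through which ATP is known to slow the enzyme.

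Several complex IV subunits exist as a form of heart and skeletal muscle and a form found in most tissues. Of the muscle forms, Cox8b (−0.82 ± 0.19, adjusted p = 0.000958) and Cox7a1 (−0.58 ± 0.15, adjusted p = 0.00363) were lower in Mstn-null muscle, and Cox6a2 was not called (−0.08 ± 0.07, adjusted p = 0.339). Cox6a2 read 11.16 to 11.83 in Mstn-null muscle of experiment 2 (median 11.58), against 11.82, 11.67, 11.71, 11.48 and 11.58 in controls, and the groups overlapped throughout. Its 95% interval was −0.21 to 0.06. Of the widespread forms, Cox7a2 was lower (−0.60 ± 0.13, adjusted p = 0.000751), while Cox8a (−0.01 ± 0.09, adjusted p = 0.898) and Cox6a1 (−0.18 ± 0.20, adjusted p = 0.469) were not called. Cox6a1 was at −0.88 ± 0.33 in experiment 1 and 0.16 ± 0.23 in experiment 2. That difference between experiments did not pass (adjusted p = 0.138, limma interaction term). The mean levels of Cox6a1 and Cox8a were at percentiles 75.5 and 80.1 of all genes, against 92.8 for Cox7a2 and 99.5 for Cox6a2. Cox8a read 7.95 to 8.29 in Mstn-null muscle of experiment 2 (median 8.15), against 8.10, 8.16, 7.98, 8.22 and 7.85 in controls, with overlapping ranges. In the subunit 8 pair the muscle form passed as lower, in the subunit 7a pair both forms did, and in the subunit 6a pair neither did. The differences within pairs were not tested. Cox7a1 was at −0.25 (adjusted p = 0.0646, limma) without the narrow-range arrays, and there its call was lost.

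**Figure D3:**
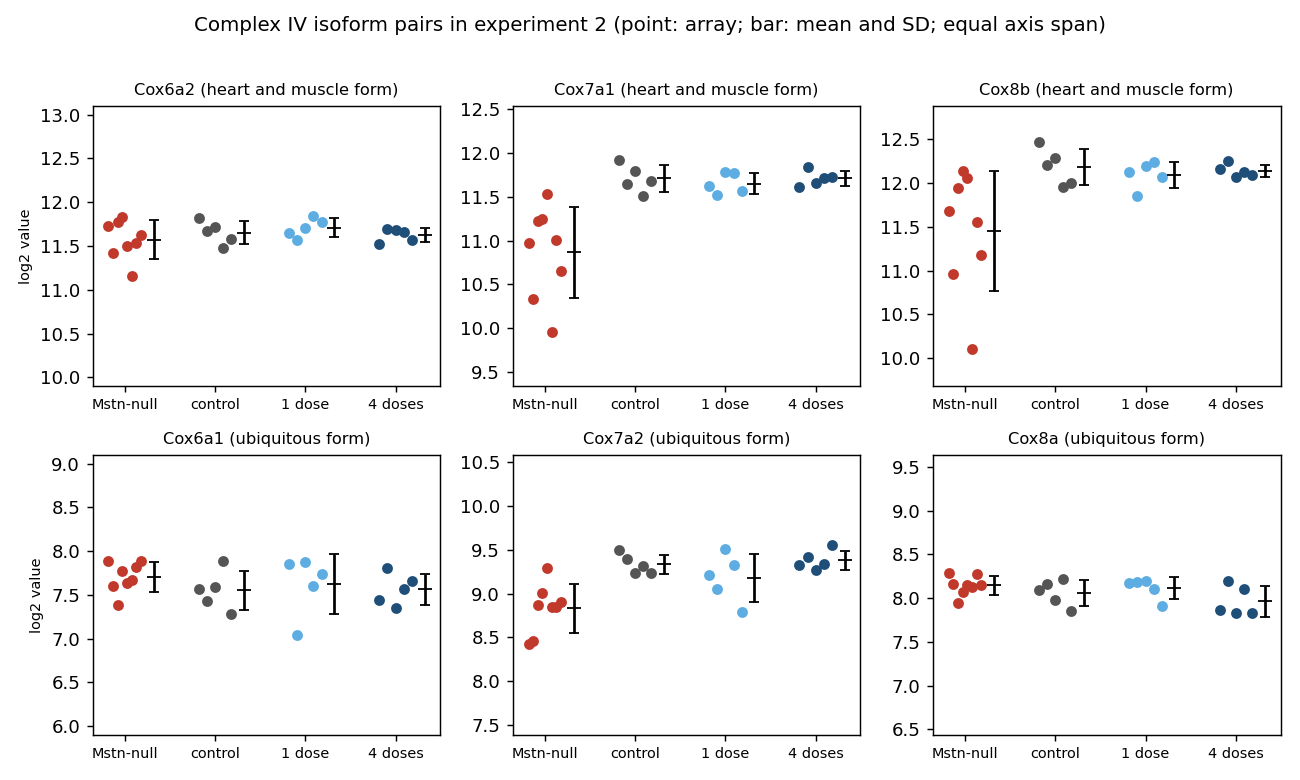
Log2 values of 3 pairs of complex IV isoforms in experiment 2, the heart and muscle form above and the ubiquitous form below; points are arrays, and bars show the mean and SD. All panels span the same number of log2 units, and levels are not comparable between genes. Mstn-null arrays reach down to 9.96 for Cox7a1 and 10.10 for Cox8b, while those of Cox8a stay within 7.95 to 8.29.

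The assembly factors of complex IV among these genes also differed. Cox17, a copper chaperone that supplies the enzyme, read 5.35, 5.81 and 6.34 in Mstn-null muscle of experiment 1, against 6.88, 7.55 and 7.44 in controls. In the second experiment it ran from 6.22 to 8.51 (median 7.52) in Mstn-null muscle, against 8.43, 8.45, 8.47, 8.68 and 8.41 in controls. The groups were apart in experiment 1 and overlapped in experiment 2, with a difference of −1.10 ± 0.20 over both (adjusted p = 8.74e-05). Cox15, needed to make the haem a of complex IV, was lower by −0.59 ± 0.10 (adjusted p = 7.6e-05), and Cox11, which places copper in the core subunit, by −0.46 ± 0.12 (adjusted p = 0.00268). Cox10, which acts before Cox15 in haem a synthesis, was not called (−0.01 ± 0.07, adjusted p = 0.883).

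In the ATP synthase, the subunits of the membrane part and stalks were lower in 8 of 9 cases (median −0.58), and those of the soluble F1 part in 3 of 5 (median −0.31). The catalytic subunit Atp5b read 10.78, 11.02 and 11.04 in Mstn-null muscle of experiment 1, against 11.13, 11.08 and 11.10 in controls. In experiment 2 it ran from 12.44 to 12.94 (median 12.73) in Mstn-null muscle, against 13.10, 13.02, 13.09, 13.09 and 13.07 in controls. The groups did not overlap in either experiment, yet the change was small, to 80.6% of control (−0.31 ± 0.07, adjusted p = 0.000515). Its partner in the catalytic ring, Atp5a1, behaved alike, at 77.4% of control (−0.37 ± 0.07, adjusted p = 0.000176). Of the shaft subunits of F1, Atp5c1, the gamma subunit, was at −0.16 ± 0.08 (adjusted p = 0.0981) and Atp5d, the delta subunit, at −0.09 ± 0.08 (adjusted p = 0.397), whereas Atp5e, the epsilon subunit, was lower (−0.85 ± 0.17, adjusted p = 0.000386).

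Atp5l, subunit g of the membrane part, whose promoter is printed above, read 7.38, 8.53 and 8.65 in Mstn-null muscle of experiment 1, against 8.68, 9.51 and 9.57 in controls. Its values in experiment 2 ran from 8.82 to 10.18 (median 9.28) in Mstn-null muscle, against 10.43, 10.36, 10.29, 10.25 and 10.12 in controls. All Mstn-null arrays of experiment 1 lay below the controls, and 1 Mstn-null array of experiment 2 reached the lower end of the control range. It was the ATP synthase gene that fell most (−0.97 ± 0.16, adjusted p = 4.26e-05), and of the other membrane and stalk subunits Atp5j was at −0.71, Atp5k at −0.59, Atp5h at −0.58 and Atp5j2 at −0.50. Atp5o, the stalk subunit that carries oligomycin sensitivity, was lower by −0.24 ± 0.08 (adjusted p = 0.0202). Subunit c, which forms the rotor ring, is made from 3 genes that encode the same mature protein. Of these, Atp5g3 (−0.59 ± 0.10, adjusted p = 6.31e-05) and Atp5g1 (−0.34 ± 0.11, adjusted p = 0.012) were lower, and Atp5g2 was not called (−0.16 ± 0.10, adjusted p = 0.193). Atp5g1 lost its call without the narrow-range arrays (−0.22, adjusted p = 0.155, limma), and the genes were not tested against each other.

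Many of these genes have near-identical copies elsewhere in the genome, and 10 of the 40 had more than 1 row, with 18 further rows. In Mstn-null against control muscle all 18 further rows had negative estimates, and 16 passed as lower in a fit of all rows. The 2 that did not were those of Atp5g2. The rows were at −1.89 beside −1.90 for Cox6c, −1.15 beside −1.29 for Cox7b, and −0.88 to −0.97 over the 6 rows of Atp5l. Those of Cycs were further apart, at −0.93 on the row used and −1.08 and −0.78 on the others. The last of these was a dimmer row, with a mean level of 6.22 against 10.80 on the row used. How far probes are shared between a gene and its copies was not tested.

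Within experiments, the median change of the 40 genes in Mstn-null muscle was −0.62 in experiment 1 and −0.55 in experiment 2. In a fit with a term for each group, 17 genes were lower in experiment 1, against 2.7% of all genes, and 30 in experiment 2, against 16.7%. The estimate was negative in both experiments for 34 of the 40 genes. All Mstn-null arrays lay below all control arrays for 27 genes in experiment 1 (13.9% of all genes) and for 10 in experiment 2 (5.52%). For 9 genes this held in both (2.57% of all genes): Uqcrfs1, Uqcrb, Uqcrh, Cycs, Cox5a, Atp5a1, Atp5b, Atp5g3 and Atp5h. No gene of the 40 had a difference between the experiments that passed (limma interaction term), 7 had an unadjusted p under 0.05, and 1.68% of all genes passed. The lowest adjusted p was that of Cox7a1 (0.0725), which was at 0.04 ± 0.23 in experiment 1 and −0.84 ± 0.16 in experiment 2.

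**Figure D4:**
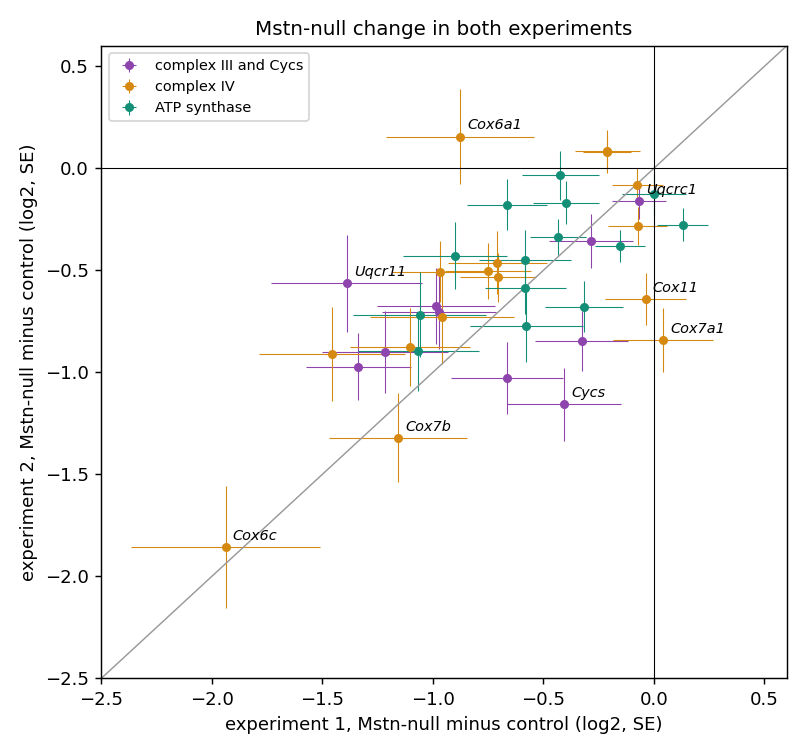
Mstn-null minus control difference (log2) of each of the 40 genes in experiment 1 (x axis) and experiment 2 (y axis), with SE bars, coloured by complex; the diagonal marks equal change. For 34 genes both values are negative, and Cox7a1 lies at 0.04 and −0.84.

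After 1 dose of ActRIIB-Fc, 0 of the 40 genes passed against control muscle in either direction (limma; 0.572% of all genes were lower and 0.542% higher), and 0 had an unadjusted p under 0.05, against 4.05% of all genes lower and 7.87% higher. The median change was −0.10, with −0.16 for complex III and cytochrome c, −0.11 for complex IV and −0.07 for the ATP synthase. Single arrays moved these small medians: they were −0.10, −0.06 and −0.05 without control replicate 2 of experiment 1. Complex IV was at −0.17 without treated replicate 2 of experiment 1, and the ATP synthase at −0.04 without control replicate 3 of experiment 1 and −0.03 without treated replicate 5 of experiment 2. Cox6c, the gene that fell most in Mstn-null muscle, read 10.48, 10.47 and 10.29 after 1 dose, against 10.39, 10.53 and 10.55 in controls of experiment 1. In the second experiment it read 11.89, 12.20, 12.28, 11.89 and 11.75 after 1 dose, against 12.18, 12.28, 12.33, 12.39 and 12.23 in controls. The groups overlapped in both experiments, and the 95% interval of the difference was −0.76 to 0.35. The lowest adjusted p was 0.51, for Atp5g3 (−0.19 ± 0.11), ahead of Uqcrh (−0.28 ± 0.18), Cox6b1 (−0.23 ± 0.17), Cox11 (−0.17 ± 0.12), Uqcrfs1 (−0.18 ± 0.15) and Atp5o (−0.08 ± 0.09). Of the isoform pairs, the muscle forms were at −0.22 (Cox8b), −0.10 (Cox7a1) and 0.01 (Cox6a2), and the widespread forms at 0.02 (Cox8a), −0.17 (Cox7a2) and −0.07 (Cox6a1).

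After 4 doses, again 0 of the 40 passed (limma; 1.23% of all genes were lower and 1.91% higher). At an unadjusted p under 0.05, 3 were lower (Cox8a, Cox7a2 and Cox6b1) and 0 higher, against 6.04% of all genes lower and 8.6% higher. Estimates were negative for 35 of 40, with a median of −0.13 against 0.02 over all genes, and by complex −0.26, −0.20 and −0.07. The complex III median was −0.15 without treated replicate 3 of experiment 1, and the ATP synthase median −0.10 without control replicate 5 of experiment 2. Cox8a had the lowest adjusted p (0.253), with −0.22 ± 0.09, and Cox7a2 was at −0.29 ± 0.14. In complex III Uqcr10 (−0.30 ± 0.16) and Uqcrq (−0.30 ± 0.16) came first, and in the ATP synthase Atp5e (−0.37 ± 0.19) and Atp5l (−0.32 ± 0.17). The muscle forms were at −0.26 (Cox8b), 0.05 (Cox7a1) and 0.02 (Cox6a2), Cox6a1 was at −0.26, and the subunit c genes Atp5g1, Atp5g2 and Atp5g3 were at −0.09, −0.08 and −0.11. The 95% intervals reached at most 0.55 to either side of an estimate. As after 1 dose, they rest on 1 estimate of the spread shared by all 4 classes, with the uneven Mstn-null arrays among them. In a fit of only the 4-dose and control arrays, Cox6b1 was lower (−0.34, adjusted p = 0.026, limma), against 2.32% of all genes.

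The changes after 4 doses were also read within each experiment. In experiment 1 the median change was −0.31, and for 20 of the 40 genes all 3 treated arrays lay below all 3 controls, against 7.8% of all genes. In experiment 2 the median was −0.03, and this held for 0 of 40, against 2.8% of all genes. Cox6c read 9.57, 9.91 and 8.87 after 4 doses in experiment 1, against 10.39, 10.53 and 10.55 in controls, all treated arrays being lower. In experiment 2 it read 12.29, 12.20, 12.14, 12.18 and 12.40, against 12.18, 12.28, 12.33, 12.39 and 12.23 in controls, and the groups overlapped. Within experiment 1, 1 gene passed in the fit by group (Cox7a2, −0.86 ± 0.19, adjusted p = 0.0372, against 0.301% of all genes lower), and Cox7a2 was at 0.05 ± 0.15 in experiment 2. The difference between experiments did not pass for any of the 40 (limma, lowest adjusted p = 0.221; 0.00502% of all genes passed), and 4 had an unadjusted p under 0.05.

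**Figure D5:**
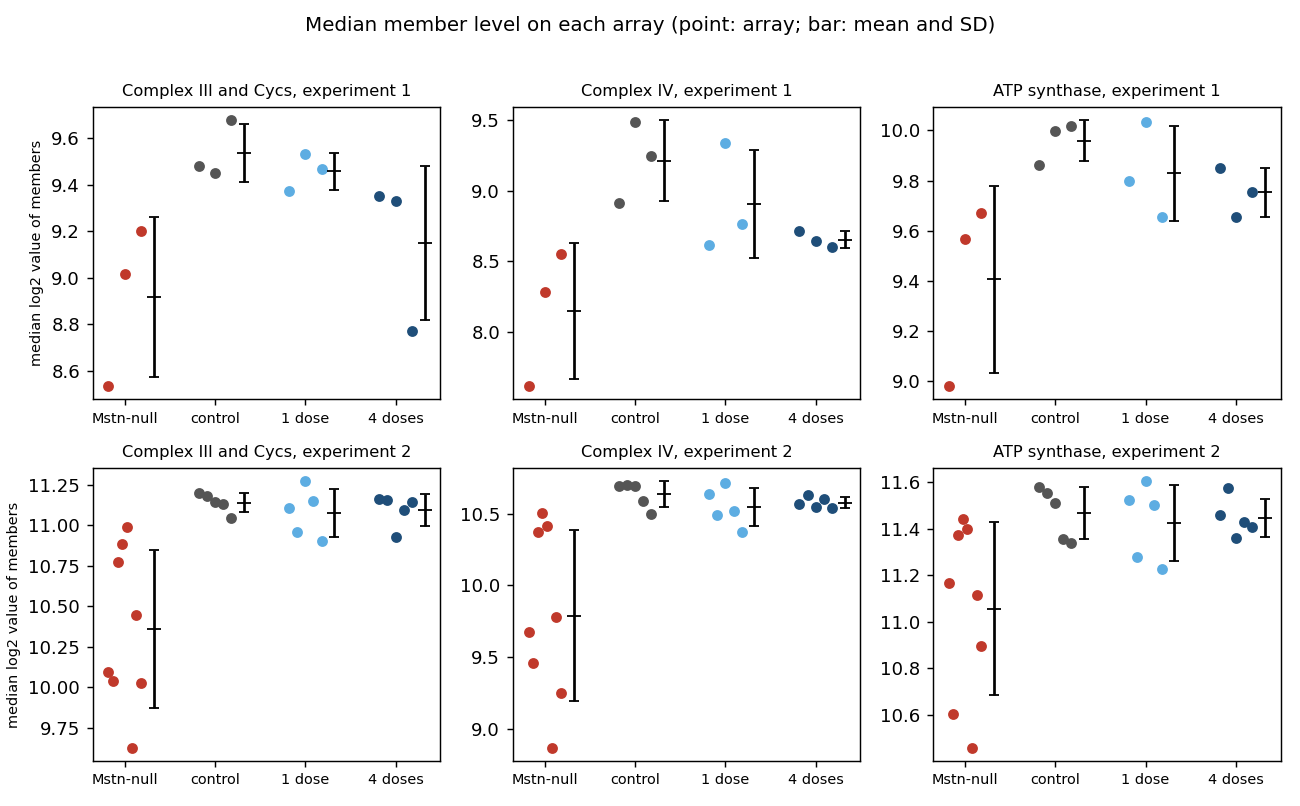
Median log2 value of the genes of each complex on every array, by class (columns of points) and experiment (rows of panels); bars show the mean and SD over arrays. In experiment 2 the dose groups lie with the controls in complex IV, at 10.37 to 10.71 after 1 dose and 10.54 to 10.63 after 4 doses, while Mstn-null arrays reach down to 8.87.

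Set against each other, 4 doses and 1 dose did not differ in any of the 40 genes by the test (limma, 0 lower and 0 higher; 0.0451% and 0.276% of all genes). At an unadjusted p under 0.05, Cox8a (−0.24 ± 0.09) and Cox15 (−0.24 ± 0.11) were lower after 4 doses, against 3.58% of all genes.

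Compared with Mstn-null muscle, treated muscle had higher levels of most of these genes. After 1 dose 30 of 40 were higher and 0 lower (limma; 10.9% of all genes and 32.6% of the brightest 10% were higher, and 5.9% of all genes lower), with a median of 0.49. After 4 doses 26 of 40 were higher and 0 lower (11.4% of all genes and 34.8% of the brightest 10% were higher, and 8.75% of all genes lower), with a median of 0.48. After the same centring, 32 were higher after 1 dose (14.4% of all genes higher, 2.04% lower) and 28 after 4 doses (14.1% higher, 2.57% lower). Both comparisons share the Mstn-null arrays. Cox6c stood highest, at 1.69 ± 0.26 after 1 dose (adjusted p = 4.82e-05) and 1.48 ± 0.26 after 4 doses (adjusted p = 0.000216), and Uqcrfs1 was at 0.92 and 0.83. Of the muscle forms Cox7a1 (0.48 after 1 dose, 0.63 after 4 doses) and Cox8b (0.61 and 0.56) passed at each, and Cox6a2 (0.09 and 0.10) at neither. Cox7a2 passed after 1 dose (0.44, adjusted p = 0.0206), and after 4 doses it was at 0.31 (adjusted p = 0.0881). Complex III and cytochrome c passed as higher for 9 of 10 genes after 1 dose and 7 of 10 after 4 doses, complex IV for 11 and 9 of 16, and the ATP synthase for 10 of 14 at each. With the interquartile range of the array as a term, 0 of the 40 passed in either comparison, where 0.12% of all genes were higher after 1 dose and 0.552% after 4 doses. Without the 4 narrow-range Mstn-null arrays, 15 were higher after 1 dose (3.39% of all genes) and 8 after 4 doses (2.77%).

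Most genes of 3 lists of assembly factors were lower in Mstn-null muscle, where 16.4% of all genes and 43.6% of the brightest 10% were. Of 6 complex III assembly factors 4 were lower (median −0.35), namely Uqcc1 (−0.64), Uqcc3 (−0.58), Lyrm7 (−0.38) and Bcs1l (−0.23), while Uqcc2 (−0.32) and Ttc19 (−0.07) were not called. Of 14 measured further complex IV assembly factors 12 were lower (median −0.44), among them Cox14 (−0.82), Lrpprc, which stabilises mitochondrial mRNA (−0.71), Cmc2 (−0.62) and Surf1 (−0.53). Of 3 ATP synthase assembly factors, Atpaf1 (−0.76) and Tmem70 (−0.72) were lower and Atpaf2 was not called (0.11). After 4 doses 0 of 6, 0 of 14 and 0 of 3 of these passed. Of the neighbouring complex II genes, 5 of 6 were lower in Mstn-null muscle (median −0.53), with Sdhd at −0.84, Sdha, the flavoprotein, at −0.65, Sdhaf2 at −0.59, Sdhb at −0.47 and Sdhc at −0.28, and Sdhaf1 was not called (−0.20). Of 8 genes of the mitochondrial outer membrane and of mitochondrial content, 6 were lower (median −0.35), among them the chaperone Hspd1 (−1.17), the import receptor Tomm20 (−0.71), the channel Vdac1 (−0.42) and citrate synthase, Cs (−0.31).

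Other subunits and isoforms did not share 1 direction. Of 8 measured, 3 were lower and 2 higher in Mstn-null muscle, where 16.4% of all genes were lower and 25.4% higher. Ndufa4, now counted as a complex IV subunit, fell by 0.82 on the log2 scale, and Cox7a2l, which joins complexes III and IV into supercomplexes, by 0.55. The testis forms Cox6b2 and Cyct also passed, as higher, but on dim rows: Cyct averaged 1.58 in Mstn-null and 1.25 in control muscle of experiment 1, below the array medians. Whether these rows read above background was not tested, and no size is given for them. The mitochondrial genome encodes core subunits of these complexes, and of 6 such genes 1 had a row of its own. This gene, COX2, a copper-binding core subunit, was higher in Mstn-null muscle (0.16 ± 0.05, adjusted p = 0.0158, limma). It averaged 11.30 in Mstn-null and 11.01 in control muscle of experiment 1, and 13.62 against 13.51 in experiment 2. After 1 dose it was at 0.21 ± 0.06 against control (adjusted p = 0.0646) and after 4 doses at 0.07 ± 0.06 (adjusted p = 0.632).

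Regulators known for respiratory genes were lower in 6 of 13 cases in Mstn-null muscle (median −0.26), against 16.4% of all genes. Tfam, which packages and transcribes mitochondrial DNA, was lower (−1.11 ± 0.19, adjusted p = 6.35e-05), as was Tfb2m (−0.86). Esrrg, an estrogen-related receptor of oxidative muscle, was lower in Mstn-null muscle (−0.75 ± 0.10, adjusted p = 1.39e-06) and after 4 doses (−0.57 ± 0.10, adjusted p = 0.000805). Gabpa, which binds the ETS motif, was lower in Mstn-null muscle (−0.52, adjusted p = 0.00543), while Nrf1 (−0.04, adjusted p = 0.606) and Yy1 (−0.04, adjusted p = 0.57) were not called. Ppargc1a, a coactivator of mitochondrial biogenesis, was at −0.27 in Mstn-null muscle (adjusted p = 0.0939) and −0.29 after 4 doses (adjusted p = 0.333). Of the 13 regulators, 2 were lower after 4 doses (median −0.22), against 1.23% of all genes. After 1 dose 0 of 13 passed (median −0.05), where 0.572% of all genes were lower.

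Fibre and cell markers were read on the same arrays, where 16.4% of all genes passed as lower in Mstn-null muscle and 1.23% after 4 doses. All 10 slow-fibre genes were lower in Mstn-null muscle (median −2.22), among them Myoz2 (−2.55), Casq2 (−1.66), Myl2, the slow regulatory light chain (−3.03), and Myh7, the slow myosin heavy chain (−2.42). After 4 doses 9 of 10 were lower (median −1.49), with Myl2 at −1.98, and Casq2 was at 0.03. After 1 dose 0 of 10 passed (median −0.93), but 6 were lower at an unadjusted p under 0.05 (limma), against 4.05% of all genes. The mean of the 10 on an array ranged from 6.77 to 9.38 in Mstn-null, 7.75 to 10.48 after 1 dose and 7.74 to 9.57 after 4 doses, against 9.91 to 10.55 in controls of experiment 2. Of the fast heavy chains, Myh2 of the oxidative fast fibres fell by 1.30 on the log2 scale in Mstn-null muscle and Myh1 by 0.42, and Myh4 was not called (0.08). Endothelial markers were lower for 4 of 8 in Mstn-null muscle (median −0.38), with Egfl7 at −0.68, Pecam1 at −0.59 and Esam at −0.44. Macrophage markers were higher for 4 of 6 in Mstn-null muscle (median 0.36), led by Laptm5 (0.66), against 25.4% of all genes. After 4 doses 5 of 6 were higher (median 0.62), against 1.91% of all genes. Lyz2, the brightest, averaged 6.06 in Mstn-null and 6.30 in control muscle of experiment 1, and 8.37 against 8.38 in experiment 2. Csf1r, Adgre1 and Fcgr3 also averaged below control muscle in experiment 1, and Cd68 and Laptm5 above it. None of 5 adipocyte, 2 brown adipocyte and 1 erythroid markers passed in Mstn-null muscle or after 4 doses (limma); at an unadjusted p under 0.05 the erythroid marker Alas2 was higher in Mstn-null muscle and 2 adipocyte markers were lower after 4 doses. Of the smooth muscle markers, 1 of 4 was lower in each (Tagln in Mstn-null muscle, −0.23, and Myh11 after 4 doses, −0.52). Their part in the changes of the respiratory genes was not tested.

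Among the 40 genes, the rank correlation of mean level with change (Spearman, across genes, a description) was 0.15 in Mstn-null muscle, where over all genes it was −0.35. After 4 doses it was 0.56 among the 40 and −0.19 over all genes, and after 1 dose 0.15 and −0.20.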

How the data were processed

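RNA of mouse quadriceps from 35 mice was measured on Affymetrix whole-transcript arrays. The deposited values are RMA values on a log2 scale; RMA, limma 3.4.4 and R 2.11.1 are the tools listed per the submitters' processing notes, with no step given for the last 2. Base 2 was inferred from the values, which reach 14.7. Joint or separate normalisation of the experiments is not stated. Of 35556 rows, 21789 carried 1 gene symbol in the platform annotation, 1621 several and 12146 none. Rows with 1 symbol gave 19938 genes, 999 of them from several rows, of which the row with the highest mean was used. All 40 genes matched RefSeq (GRCm38.p6) by gene number.

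Differences were tested in R 4.3.3 by limma 3.58.1's moderated test (lmFit, eBayes) in a model of class plus experiment on the 35 arrays, and p-values were adjusted over all genes (Benjamini-Hochberg, called under 0.05). Values are relative to control or as stated, on the log2 scale; errors of differences are SE and of groups SD. The number of arrays limits the precision. The fit was tested on simulated data. The rule for named genes took, in each complex, the members with the smallest p (5 for Mstn-null against control, 2 elsewhere), members not called in Mstn-null muscle and isoform families, and from the other lists the 3 genes with the smallest p and lists of under 8 genes in full. Not every marker it took is printed, and the other members and list genes named were chosen after their values were seen. The members and lists were chosen with earlier results of these data known. The replicate numbers of the labels were not treated as pairs of mice. Deviations of 48 same-numbered pairs correlated at −0.60 to 0.41 (median 0.005), which cannot exclude a pairing. Alternatives were another scaling, the array range as a term, each experiment alone, other rows and filters, a replicate block and leaving out arrays. Leaving out the 4 narrow-range Mstn-null arrays was chosen after seeing the data. Figures were drawn with matplotlib 3.10.9.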

Additional observations from a re-analysis of the deposited data

Results flagged for a closer look

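In 172 groups of at least 4 arrays, a sample far from the others (a gap to its nearest neighbour above Dixon's 95% critical value for the range of its group) was seen 11 times; chance alone marks about 1 group in 20. The groups of experiment 1 hold 3 arrays and were not examined, so all values here are of experiment 2. After 1 dose, Cox7b on replicate 3 read 11.43, against 11.07 to 11.13 on the others, and Atp5l on the same array read 10.47, against 10.14 to 10.21. On replicate 2 of that group Cox4i1 read 10.54, against 10.74 to 10.79, and Cox10 read 8.07, against 8.26 to 8.29. On replicate 1 Cox11 read 8.14, against 8.34 to 8.43. After 4 doses, Cox10 on replicate 2 read 8.25, against 8.06 to 8.12. Replicate 3 of that group had Atp5h at 11.56, against 11.81 to 11.84, and its array median of complex III genes was 10.93, against 11.09 to 11.16. Among Mstn-null arrays, Uqcr11 on replicate 6 read 7.09, against 8.23 to 9.05; that array also had the narrowest interquartile range of all 35 arrays (2.52). Among control arrays, Uqcrh on replicate 5 read 10.83, against 10.97 to 10.99, and Cox17 on replicate 4 read 8.68, against 8.41 to 8.47.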

How the results depend on the processing

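The count of 32 genes lower in Mstn-null muscle stayed at 27 to 35 under all alternatives run but 2, the array range as a covariate and experiment 1 alone, and the 3 complex medians stayed negative under all of them. Leaving out 1 array at a time gave 32 to 33 genes lower in Mstn-null muscle, and, against Mstn-null muscle, 25 to 31 higher after 1 dose, 22 to 30 higher after 4 doses and 0 to 1 lower after 4 doses (Cox8a, without Mstn-null replicate 1 of experiment 1). With the interquartile range of the array as a covariate, 1 gene was lower, the medians were −0.37, −0.23 and −0.16 for complex III, complex IV and the ATP synthase, 0 genes were higher after 1 dose or 4 doses than in Mstn-null muscle (complex III medians 0.30 and 0.27), and 2 genes, Cox7a1 and Atp5c1, differed between experiments. In experiment 1 alone, 8 genes were lower in Mstn-null muscle (1.99% of all genes), 5 were higher after 1 dose (1.61%) and 0 after 4 doses (0.00502%) than in Mstn-null muscle, and the complex III median after 4 doses against control was −0.59. There Cox7a1 turned round, at 0.040 for Mstn-null against control (adjusted p = 0.927, limma) and −0.21 for 1 dose against Mstn-null (adjusted p = 0.61, limma). The cause was not tested. Quantile normalisation gave 1 gene lower after 4 doses than in Mstn-null muscle (Cox8a; 6.39% of all genes) and 19 higher after 1 dose (9.14%). With only the arrays of the classes compared, 1 gene (Cox6b1) was lower after 4 doses than in control muscle (2.32% of all genes), and 16 were higher after 4 doses than in Mstn-null muscle (5.99%). The replicate block left 14 higher after 4 doses than in Mstn-null muscle (4.19% of all genes). The labels do not say that the numbers pair the mice, and 12 of 35 arrays correlated best with their own number. Without the 4 narrow-range Mstn-null arrays, 15 were higher after 1 dose (3.39% of all genes) and 8 after 4 doses (2.77%) than in Mstn-null muscle.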
